A study of Mus musculus with 9 samples.

Results

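Transcripts of proteasome genes were followed in RAW264.7, a macrophage-like mouse cell line transformed by Abelson virus. Genes were taken whose symbol is Psma, Psmb, Psmc, Psmd, Psme, Psmf or Psmg followed by a number, and 48 genes of the 43629 listed matched. Of these, 47 passed the minimum for testing, 10 or more normalised counts in 3 or more of 9 libraries, as did 14808 genes of the whole table. The 5 interferon-inducible subunits Psmb8, Psmb9, Psmb10, Psme1 and Psme2 were set beside the 42 other members that passed. The libraries formed 3 groups of 3: cells that received sodium butyrate (NaBu, which inhibits histone deacetylases) before lipopolysaccharide (LPS, a bacterial endotoxin), named LPS+NaBu, cells that received LPS, and control cells. All groups are this 1 cell line in culture, and cells with NaBu alone were not analysed here. The labels do not say whether the 3 replicates of a group were separate cultures, and p-values therefore reflect only how far these libraries differ, which may be technical. A normalised count is the read count of a gene divided by the library's size factor, without division by gene length, so levels were compared between libraries and not between genes.

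The proteasome is the protease that degrades ubiquitin-tagged proteins. Its 20S core is a barrel of alpha rings, which gate the entry, and beta rings, which carry the catalytic sites, and it is capped by the 19S regulatory particle, in which ATPases unfold the substrate and non-ATPase subunits bind and remove ubiquitin. Interferons and other inflammatory signals lead macrophages to make the catalytic subunits Psmb8 (LMP7), Psmb9 (LMP2) and Psmb10 (MECL-1), which take the places of Psmb5, Psmb6 and Psmb7 in newly built immunoproteasomes and change the peptides available to MHC class I, and to make Psme1 and Psme2, the subunits of the PA28 activator cap.

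Reads assigned to genes, as recovered from the deposited values, numbered 37625419 to 64380392 per library. The spread of a passing member within a group was small, with a median coefficient of variation of 4.04% (range 0.827% to 13.5%, over 141 combinations of gene and group). All 8 macrophage markers examined, among them Adgre1, Csf1r and Spi1, had at least 10 normalised counts in every library. Of 20 markers of other cell types, 2 were at 0 in all 9 libraries, Alb and Ncr1, markers of hepatocytes and NK cells. The other hepatocyte marker, Apoa1, had 1.38, 6.69 and 7.26 in LPS+NaBu cells and 0 in every LPS and control library. The summed level of the 8 macrophage markers was 216469 to 234886 in LPS+NaBu cells, 633325 to 672376 in LPS cells and 462537 to 480023 in control cells. Lyz2 had the highest level of the 8 in each group, with means of 148101, 268185 and 255390 in that order. All 8 were called lower in LPS+NaBu than in LPS cells, beside 37.8% of all genes. Their median log2 change was -1.68 (range -4.19 to -0.43), and that of the 5 inducible subunits was -1.53. Against control, 7 of the 8 were called lower in LPS+NaBu and 1, Adgre1, higher, beside 35.1% and 40.9% of all genes. Adgre1 averaged 5849 in LPS+NaBu, 7881 in LPS and 3690 in control cells. The 20 markers of other cell types summed to 322 to 350 in LPS+NaBu cells, 872 to 888 in LPS cells and 50.3 to 70.0 in control cells. Most of the LPS sum was Xcr1, a dendritic cell marker, at 16.5, 11.2 and 28.1 in LPS+NaBu cells, 723, 729 and 710 in LPS cells and 27, 12 and 12.1 in control cells. The other dendritic cell marker, Flt3, had 2.75, 0 and 0 in LPS+NaBu cells and 2.01, 0 and 0 in LPS cells. It was at 0 in every control library. The fibroblast marker Col1a1 had 152, 146 and 141 in LPS+NaBu cells, 4.01, 3.52 and 2.82 in LPS cells and 1.59, 2.0 and 4.02 in control cells. The part of these shifts in the results was not tested. In bulk RNA, fewer cells with a transcript and less of it per cell cannot be told apart.

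The 1 member below the minimum was Psmb11, the catalytic subunit of the thymoproteasome of thymic epithelium. It had 5.50, 0 and 0 normalised counts in LPS+NaBu cells, 6.02, 0 and 0 in LPS cells and 7.95, 6.0 and 6.04 in control cells, and was not tested.

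Of the inducible catalytic subunits, Psmb8 (chr17:34416690-34420428, plus strand, 6 exons) and Psmb9 (chr17:34400960-34406738, minus strand, 6 exons) lie 9952 bases from each other in the MHC. Psmb10 (chr8:106662362-106665077, minus strand, 8 exons) lies on another chromosome. Psme1 (chr14:55815190-55822034, plus strand, 11 exons) and Psme2 (chr14:55824895-55829173, minus strand, 11 exons) are neighbours separated by 2861 bases. These coordinates and exons are those of GENCODE release M39 on GRCm39. In that annotation Psmb9 and Tap1, a peptide transporter subunit encoded on the opposite strand, overlap by 743 bases. Of the exonic bases of the canonical Psmb9 transcript 515 are shared with Tap1. With this annotation, reads from the shared bases can be told apart only if the counting used strand. The sources used here do not give the strand setting of the counting or settle its annotation.

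The promoters of 40 of the 48 members had an entry in the RefSeq windows used, each with 250 bases before and 50 from the annotated start on (GRCm38.p6). The 250 bases before the start are shown for the 3 inducible catalytic subunits and for Psmb5 and Psmb6, whose transcripts were set against Psmb8 and Psmb9, together with a 30-base stretch of Psme1. They are Psmb8 (chr17:34197945-34198194, plus strand), Psmb9 (chr17:34187331-34187580, minus strand), Psmb10 (chr8:105938393-105938642, minus strand), Psmb5 (chr14:54617996-54618245, minus strand), Psmb6 (chr11:70525107-70525356, plus strand) and Psme1 (chr14:55578493-55578522, plus strand). The letters are written 5′ to 3′ on the strand of the gene, with matches to the motifs named after them in capitals.
Psmb8: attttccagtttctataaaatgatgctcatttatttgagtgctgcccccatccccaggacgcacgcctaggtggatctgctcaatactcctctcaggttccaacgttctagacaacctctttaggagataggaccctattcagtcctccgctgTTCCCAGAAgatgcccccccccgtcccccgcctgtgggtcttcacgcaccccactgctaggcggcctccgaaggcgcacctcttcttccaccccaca
Psmb9: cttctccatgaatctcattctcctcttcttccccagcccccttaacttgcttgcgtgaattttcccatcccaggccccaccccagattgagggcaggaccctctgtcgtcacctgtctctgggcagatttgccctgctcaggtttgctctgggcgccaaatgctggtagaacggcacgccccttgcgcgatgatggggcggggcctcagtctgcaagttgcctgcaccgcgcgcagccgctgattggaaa
Psmb10: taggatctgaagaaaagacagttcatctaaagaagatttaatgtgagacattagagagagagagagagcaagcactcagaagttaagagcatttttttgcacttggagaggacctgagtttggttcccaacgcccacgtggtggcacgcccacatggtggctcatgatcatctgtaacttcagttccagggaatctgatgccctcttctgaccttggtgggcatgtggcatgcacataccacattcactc
Psmb5: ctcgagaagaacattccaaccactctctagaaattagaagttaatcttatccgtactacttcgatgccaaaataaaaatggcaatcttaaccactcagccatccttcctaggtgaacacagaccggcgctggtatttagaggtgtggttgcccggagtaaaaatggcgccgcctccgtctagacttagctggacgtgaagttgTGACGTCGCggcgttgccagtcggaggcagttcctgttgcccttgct
Psmb6: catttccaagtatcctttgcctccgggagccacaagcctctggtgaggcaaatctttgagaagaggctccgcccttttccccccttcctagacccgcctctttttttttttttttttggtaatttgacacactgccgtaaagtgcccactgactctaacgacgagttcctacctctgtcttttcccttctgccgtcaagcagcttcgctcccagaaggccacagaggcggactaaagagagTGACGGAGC
Psme1: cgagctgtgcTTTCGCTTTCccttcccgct
The capitals in Psmb8 mark a GAS (interferon-gamma-activated site) core, TTCNNNGAA, with its first base at -97. Those in Psmb5 and Psmb6 mark an antioxidant response element core, TGACNNNGC, at -47 and at -9, and those in Psme1 the interferon-stimulated response element core (GAAA, any pair of bases, GAAA) read on the opposite strand, at 10 bases counted from 1 at the start. On both strands and counting each member once, the GAS core matched 7.5% of the 40 members against 8.3% of all 32851 windows, the interferon-stimulated core 12.5% against 3.44%, and TGACNNNGC 15% against 12.4%. The NF-kB motif (GGG, any pair of bases, TTTCC) matched 0 of the 40 members and 1.63% of all windows. Of the members with the interferon-stimulated core, Psme1 is inducible and the others are Psmb3, Psmd4, Psmd9 and Psmg4, and those with the GAS core are Psmb8, Psmd2 and Psmg1. Neither the Psmb9 nor the Psmb10 window held any of the 4 motifs as spelled here. The RefSeq starts of Psmb9 and Tap1 are 226 bases apart, on opposite strands. A match is only a string of letters, and binding was not measured in these libraries.

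All 5 inducible subunits were lower in LPS+NaBu than in LPS cells, and all 5 were higher in LPS than in control cells. Of all genes tested, 37.8% were called lower in the first of these comparisons and 25.2% higher in the second. The sizes of the inducible subunits differed by gene: against LPS cells Psmb10 was 18.2-fold lower in LPS+NaBu cells, while Psmb9 was 1.69-fold lower. Against control cells, LPS+NaBu cells had less Psmb10, more Psmb9 and Psme2, and levels of Psmb8 and Psme1 that did not pass the test. In that comparison 40.9% of all genes were called higher and 35.1% lower. Each of the 15 outcomes of the inducible subunits was the same in all 19 alternative analyses. The comparisons share libraries with each other, so their values stand side by side as descriptions of 3 groups and are not independent of one another.

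Psmb10 encodes the inducible subunit that takes the place of Psmb7. It had 512, 627 and 520 normalised counts in LPS+NaBu cells, 9166, 11064 and 10040 in LPS cells and 1861, 1748 and 1787 in control cells. The groups did not overlap, and the LPS+NaBu libraries were lower than every control library. The log2 change was -4.19 ± 0.08 (SE) with LPS+NaBu against LPS (limma adjusted p = 1.44e-13), 2.48 ± 0.08 with LPS against control (limma adjusted p = 3.26e-11), and -1.71 ± 0.08 with LPS+NaBu against control (limma adjusted p = 5.56e-10), the last a 3.26-fold lower level.

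Psmb8 encodes the inducible chymotrypsin-like subunit, which takes the place of Psmb5. It had 4937, 4807 and 4631 normalised counts in LPS+NaBu cells, 13141, 15090 and 13229 in LPS cells and 4592, 4387 and 4832 in control cells. The LPS libraries stood above all others, while LPS+NaBu and control libraries overlapped. The log2 change was -1.53 ± 0.06 with LPS+NaBu against LPS (limma adjusted p = 4.53e-11) and 1.58 ± 0.06 with LPS against control (limma adjusted p = 8.2e-11). Between LPS+NaBu and control the estimate was 0.06 ± 0.06 (limma adjusted p = 0.377), and over the 19 alternatives it lay between -0.01 and 0.11.

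Psmb9, which takes the place of Psmb6, kept a level above control under NaBu. It had 3087, 2997 and 2873 normalised counts in LPS+NaBu cells, 4795, 5531 and 4823 in LPS cells and 1056, 922 and 1040 in control cells. The 3 groups were separate, with LPS+NaBu between the others. The log2 change was -0.76 ± 0.07 with LPS+NaBu against LPS (limma adjusted p = 2.99e-07), 2.33 ± 0.07 with LPS against control (limma adjusted p = 8.75e-12) and 1.57 ± 0.07 with LPS+NaBu against control (limma adjusted p = 1.95e-10). Its overlapping neighbour Tap1 had 5041, 5227 and 4396 normalised counts in LPS+NaBu cells, 22665, 24912 and 23331 in LPS cells and 1922, 2043 and 2064 in control cells, the same order of groups. What Tap1 reads contributed to the Psmb9 values was not tested.

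The activator subunits Psme1 and Psme2 form 1 ring together, and their values against control differed. Psme1 had 3965, 3869 and 3666 normalised counts in LPS+NaBu cells, 11227, 13127 and 11723 in LPS cells and 3804, 3504 and 4206 in control cells. Only the LPS libraries stood apart. The log2 change of Psme1 was -1.65 ± 0.07 with LPS+NaBu against LPS (limma adjusted p = 1.43e-10) and 1.65 ± 0.07 with LPS against control (limma adjusted p = 3.99e-10), and the estimate for LPS+NaBu against control was 0.00 ± 0.07 (limma adjusted p = 0.985). Psme2 had 5622, 5712 and 5244 normalised counts in LPS+NaBu cells, 10059, 12397 and 10183 in LPS cells and 3365, 2878 and 3175 in control cells. Here all 3 groups were separate, with LPS+NaBu in the middle. The log2 change of Psme2 was -0.97 ± 0.08 with LPS+NaBu against LPS (limma adjusted p = 9.62e-08), 1.79 ± 0.08 with LPS against control (limma adjusted p = 5.48e-10) and 0.82 ± 0.08 with LPS+NaBu against control (limma adjusted p = 6.08e-07).

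The Psme2 and Psme1 values carry an annotation limit. Psme2b, a near copy on chromosome 11 that the rule did not match, is identical to Psme2 over 99.4% of 795 aligned transcript bases, so reads may have been split between them or dropped. Psme2b had 2215, 1954 and 1820 normalised counts in LPS+NaBu cells, 3977, 4522 and 4231 in LPS cells and 1258, 1170 and 1303 in control cells, which was 34.2% to 41.6% of the Psme2 value in every library. The canonical Psme1 transcript shares 2192 exonic bases with Emc9 on the opposite strand, whose level did not exceed 1268 normalised counts in any library. The canonical Psme2 transcript shares 102 exonic bases with Rnf31 on the opposite strand, whose highest level in any library was 3577.7 normalised counts.

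**Figure D1:**
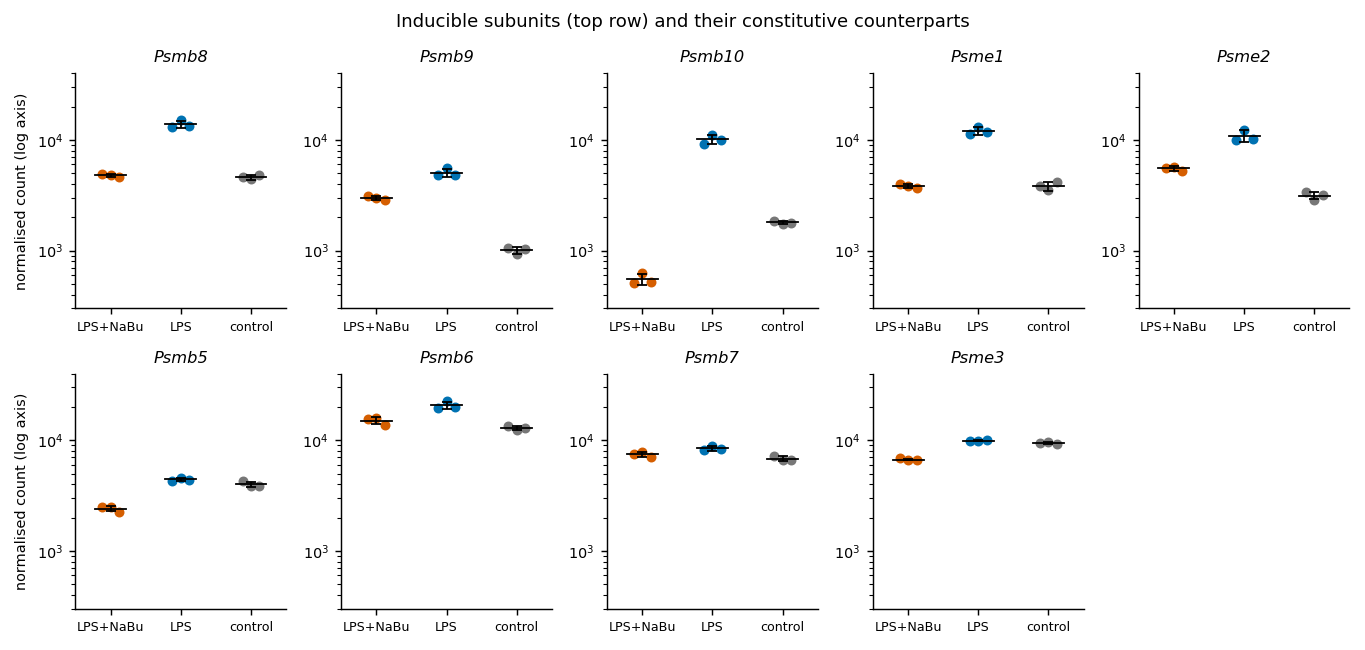
Normalised counts (log axis) of the 5 inducible subunits in the top row and of Psmb5, Psmb6, Psmb7 and Psme3 in the bottom row, with 1 point per library and the mean ± SD of 3 libraries in black. Psmb10 averaged 553 in LPS+NaBu, 10090 in LPS and 1799 in control cells, and Psmb8 4792, 13820 and 4604 in the same groups.

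With LPS against control the constitutive catalytic subunits had smaller log2 changes than the inducible ones, while with LPS+NaBu against LPS Psmb5, at -0.88, was past Psmb9, at -0.76. Psmb5 had 2473, 2504 and 2260 normalised counts in LPS+NaBu cells, 4289, 4600 and 4396 in LPS cells and 4256, 3886 and 3890 in control cells, so that the LPS+NaBu libraries were below all others. Its log2 change was -0.88 ± 0.06 with LPS+NaBu against LPS (limma adjusted p = 7.47e-09) and -0.73 ± 0.06 with LPS+NaBu against control (limma adjusted p = 5.12e-08). With LPS against control it was 0.14 ± 0.06 (limma adjusted p = 0.043), and this estimate turned to -0.08 when libraries were scaled to the same sum.

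Psmb6 had 15542, 15888 and 13717 normalised counts in LPS+NaBu cells, 19552, 22599 and 19903 in LPS cells and 13380, 12326 and 12840 in control cells. The LPS libraries were the highest and the control libraries the lowest. The log2 change was -0.46 ± 0.07 with LPS+NaBu against LPS (limma adjusted p = 2.88e-05, an estimate that came to -0.18 with scaling to the same sum and to -0.01, not called, with quantile normalization), 0.68 ± 0.07 with LPS against control (limma adjusted p = 1.41e-06) and 0.23 ± 0.07 with LPS+NaBu against control (limma adjusted p = 0.00749). Psmb7 had 7514, 7747 and 7026 normalised counts in LPS+NaBu cells, 8089, 8920 and 8275 in LPS cells and 7207, 6600 and 6683 in control cells. Its LPS libraries were the highest, and LPS+NaBu and control libraries overlapped. The log2 change was -0.18 ± 0.05 with LPS+NaBu against LPS (limma adjusted p = 0.00767, an estimate of opposite sign, 0.09, with scaling to the same sum), 0.30 ± 0.05 with LPS against control (limma adjusted p = 0.000341) and 0.12 ± 0.05 with LPS+NaBu against control (limma adjusted p = 0.0571). In the annotation Psmb7 shares 405 exonic bases with Nek6 on the opposite strand (up to 7025 normalised counts).

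Psme3 encodes PA28-gamma, a nuclear activator of the same family as Psme1 and Psme2. It had 6839, 6625 and 6605 normalised counts in LPS+NaBu cells, 9811, 9788 and 10017 in LPS cells and 9449, 9691 and 9264 in control cells. The log2 change was -0.56 ± 0.04 with LPS+NaBu against LPS (limma adjusted p = 1.62e-08) and -0.50 ± 0.04 with LPS+NaBu against control (limma adjusted p = 5.68e-08). LPS and control libraries lay close together, at 0.06 ± 0.04 (limma adjusted p = 0.204).

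The ratio of 2 transcripts within a library does not depend on the factor by which that library is scaled. Each inducible catalytic subunit was set against the subunit whose place it takes, and Psme1 and Psme2 against Psme3 of the same family. The log2 ratio of Psmb10 to Psmb7 was -3.87, -3.63 and -3.75 in LPS+NaBu cells, 0.18, 0.31 and 0.28 in LPS cells and -1.95, -1.92 and -1.90 in control cells. This ratio was thus lower in LPS+NaBu than in control, with differences of group means of -4.01 for LPS+NaBu minus LPS, 2.18 for LPS minus control and -1.83 for LPS+NaBu minus control. The log2 ratio of Psmb8 to Psmb5 was 1.0, 0.94 and 1.03 in LPS+NaBu cells, 1.62, 1.71 and 1.59 in LPS cells and 0.11, 0.17 and 0.31 in control cells. Psmb8 itself did not pass the test between LPS+NaBu and control, and this ratio was 0.79 higher in LPS+NaBu, where Psmb5 was lower.

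The remaining ratios followed the order LPS, LPS+NaBu, control. The mean log2 ratio of Psmb9 to Psmb6 was -2.33 ± 0.08 (SD, n = 3) in LPS+NaBu cells, -2.03 ± 0.01 in LPS cells and -3.68 ± 0.06 in control cells. That of Psme1 to Psme3 was -0.80 ± 0.04 in LPS+NaBu cells, 0.28 ± 0.12 in LPS cells and -1.31 ± 0.16 in control cells, and that of Psme2 to Psme3 was -0.28 ± 0.06, 0.13 ± 0.18 and -1.60 ± 0.14 in the same groups. The Psme1 to Psme3 ratio was 0.50 higher in LPS+NaBu than in control. Between these groups Psme1 itself did not pass the test (log2 change 0.00), and Psme3 was lower in LPS+NaBu (-0.50). In each of the 15 comparisons the groups did not overlap. The exact two-sided permutation test gave p = 0.1 for each, the smallest value that 3 libraries against 3 allow, and 0.1 after adjustment over the 15.

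**Figure D2:**
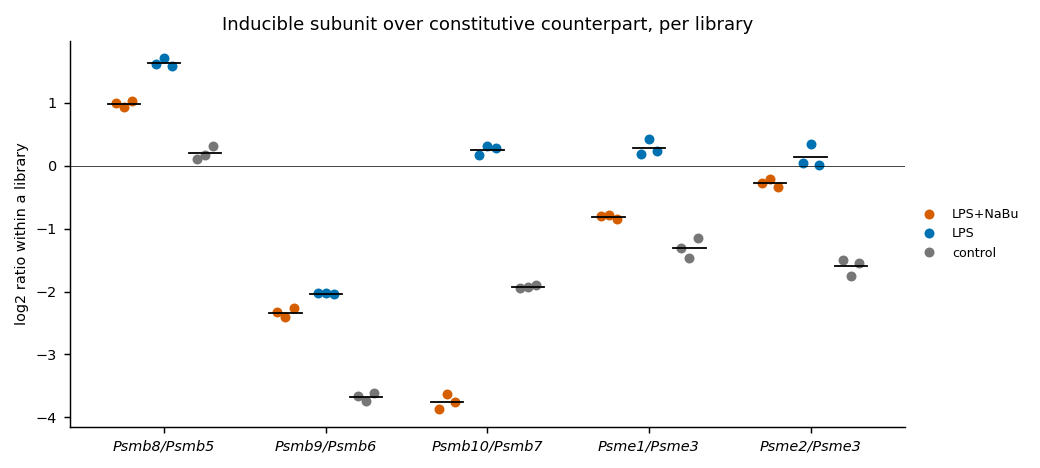
The log2 ratio of each inducible catalytic subunit to the subunit whose place it takes, and of Psme1 and Psme2 to Psme3 of the same family. Each library is 1 point and the group mean is a line. The Psmb10/Psmb7 ratio averaged -3.75 in LPS+NaBu cells, 0.26 in LPS cells and -1.92 in control cells, the single ratio that was lower in LPS+NaBu than in control.

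Among the 42 other members, LPS+NaBu against LPS gave 11 higher, 24 lower and 7 that did not pass the test. Of all genes tested, 40.2% were called higher and 37.8% lower in this comparison. The median log2 change was -0.19 for the 42 members (0.08 with libraries scaled to the same sum and 0.05 with quantile normalization), -1.53 for the 5 inducible subunits and 0.02 for all genes. The balance of the 42 depended on how libraries were scaled. Values summed to less in LPS+NaBu than in LPS libraries, and scaling to the same sum moves every log2 change up by 0.28. The count was then 20 higher and 17 lower. With quantile normalization it was 16 and 16, and with edgeR it was 10 and 27. Calls kept by all 19 alternatives numbered 10 higher and 16 lower.

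By role, the alpha ring was the most uniform in this comparison. Of its 8 genes, 7 were lower and 0 higher, with a median log2 change of -0.62, and 6 were lower and 1 higher with scaling to the same sum or with quantile normalization. Psma8, which in testis takes the place of Psma7 in the ring, had 396, 426 and 421 normalised counts in LPS+NaBu cells, 1078, 1063 and 1085 in LPS cells and 1070, 1014 and 915 in control cells. It was 2.59-fold lower in LPS+NaBu than in LPS cells (limma adjusted p = 1.35e-09) and 2.41-fold lower than in control cells (limma adjusted p = 3.49e-09), while LPS and control overlapped. Psma3 had 4090, 4226 and 3901 normalised counts in LPS+NaBu cells, 7551, 7951 and 7656 in LPS cells and 5819, 5785 and 5482 in control cells, which put LPS+NaBu below control and control below LPS. Its log2 change was -0.92 ± 0.05 with LPS+NaBu against LPS (limma adjusted p = 5.85e-10). The log2 changes of Psma1, Psma2, Psma4, Psma5 and Psma6 were -0.58, -0.36, -0.86, -0.45 and -0.66, all called lower. Psma7 stood at 0.12 and did not pass the test (limma adjusted p = 0.086).

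The constitutive beta ring was mixed, with 2 of 7 genes higher and 4 lower (4 higher and 2 lower with scaling to the same sum). Psmb3 was higher, at 0.24, and Psmb1 at 0.16. Besides Psmb5, Psmb6 and Psmb7, Psmb4 was lower, at -0.14, and Psmb2 stood at -0.05 without passing the test. Of the 6 ATPases of the 19S base, 3 were lower and 0 higher (1 lower and 4 higher with scaling to the same sum), and Psmc5, at -0.51, was the single one called lower in all 19 alternatives. The canonical Psmc5 transcript shares 98 exonic bases with Smarcd2 on the opposite strand (up to 3857.7 normalised counts). Psmc2 and Psmc3 were at -0.21 and -0.14, and Psmc1, Psmc4 and Psmc6, at 0.03, -0.09 and -0.07, did not pass the test.

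The 11 non-ATPase subunits of the 19S particle split into 4 higher and 7 lower (4 higher and 5 lower with scaling to the same sum or with quantile normalization). Psmd4, a ubiquitin receptor of the particle, had 18738, 18562 and 16751 normalised counts in LPS+NaBu cells, 9937, 10774 and 10372 in LPS cells and 10178, 9687 and 9943 in control cells. The LPS+NaBu libraries were above all others, by a log2 change of 0.80 ± 0.05 against LPS (limma adjusted p = 7.9e-09) and 0.86 ± 0.05 against control (limma adjusted p = 4.15e-09). Psmd13, a lid subunit that shares 431 exonic bases with Sirt3 and 648 with Cox8b on the opposite strand (up to 604.5 and 1.6 normalised counts), had 10574, 10124 and 9307 normalised counts in LPS+NaBu cells, 7016, 7738 and 7420 in LPS cells and 7335, 7021 and 6941 in control cells, a log2 change of 0.44 ± 0.05 against LPS (limma adjusted p = 6.75e-06). Psmd2 and Psmd3 were also higher, at 0.25 and 0.37. Psmd14, the deubiquitinase of the lid, had 4083, 3917 and 4103 normalised counts in LPS+NaBu cells, 7217, 7711 and 7550 in LPS cells and 6441, 6324 and 6171 in control cells. It was lower by -0.89 ± 0.04 against LPS (limma adjusted p = 4.12e-10) and by -0.65 ± 0.04 against control (limma adjusted p = 1.24e-08). The other subunits called lower against LPS were Psmd8 at -0.60, Psmd6 at -0.54, Psmd11 at -0.48, Psmd12 at -0.43, Psmd7 at -0.28 and Psmd1 at -0.26. The Psmd7 and Psmd1 calls each held in 17 of 19 alternatives. The lid subunits Psmd3 and Psmd13 thus changed in the direction opposite to that of Psmd6, Psmd8, Psmd11, Psmd12 and Psmd14, and each of these 7 calls held in all 19 alternatives.

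The dedicated assembly chaperones also diverged. Psmd5, which holds ATPases during assembly of the base, had 4921, 4967 and 4824 normalised counts in LPS+NaBu cells, 2228, 2470 and 2260 in LPS cells and 2931, 2850 and 2721 in control cells. It was the member with the highest log2 change against LPS, at 1.08 ± 0.05 (limma adjusted p = 3.75e-10), and LPS cells had less of it than control cells, at -0.29 ± 0.05 (limma adjusted p = 0.000319). Psmd10 (gankyrin), a chaperone of the same step, had 2008, 2151 and 2171 normalised counts in LPS+NaBu cells, 3975, 4120 and 3717 in LPS cells and 2248, 2184 and 2106 in control cells. Its LPS libraries were on top, where those of Psmd5 were lowest, and LPS+NaBu and control libraries overlapped. The log2 change of Psmd10 was -0.90 ± 0.05 with LPS+NaBu against LPS (limma adjusted p = 4.4e-09) and 0.85 ± 0.05 with LPS against control (limma adjusted p = 2.19e-08). In the annotation Psmd10 shares 66 exonic bases with Atg4a on the opposite strand (up to 1542.9 normalised counts). Psmd9, the third chaperone of the base in this set, was 0.39 higher in LPS+NaBu than in LPS cells (limma adjusted p = 3.21e-05).

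Chaperones of the 20S core are encoded by Psmg1 to Psmg4, which act as pairs. Psmg4 had 668, 700 and 538 normalised counts in LPS+NaBu cells, 1152, 1301 and 1227 in LPS cells and 1213, 1127 and 1234 in control cells. The LPS+NaBu libraries were below all others, at -0.95 ± 0.09 against LPS (limma adjusted p = 6.74e-07) and -0.91 ± 0.09 against control (limma adjusted p = 1.13e-06). Its partner Psmg3 had 656, 629 and 643 normalised counts in LPS+NaBu cells, 632, 673 and 664 in LPS cells and 817, 770 and 828 in control cells, lower with LPS+NaBu than control and not called against LPS. Psmg2, which shares 230 exonic bases with Cep76 on the opposite strand (up to 1623.5 normalised counts), had 1469, 1459 and 1517 normalised counts in LPS+NaBu cells, 1026, 1063 and 950 in LPS cells and 1376, 1360 and 1390 in control cells. Here the LPS libraries were the lowest, and the log2 change with LPS+NaBu against LPS was 0.55 ± 0.06 (limma adjusted p = 1.44e-06). Its partner Psmg1 had 1835, 1868 and 1710 normalised counts in LPS+NaBu cells, 1732, 1798 and 1720 in LPS cells and 2205, 1960 and 2086 in control cells, with control libraries on top. The activator Psme4 (PA200) and the inhibitor Psmf1 (PI31) were higher in LPS+NaBu than in LPS cells, at 0.33 and 0.27.

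**Figure D3:**
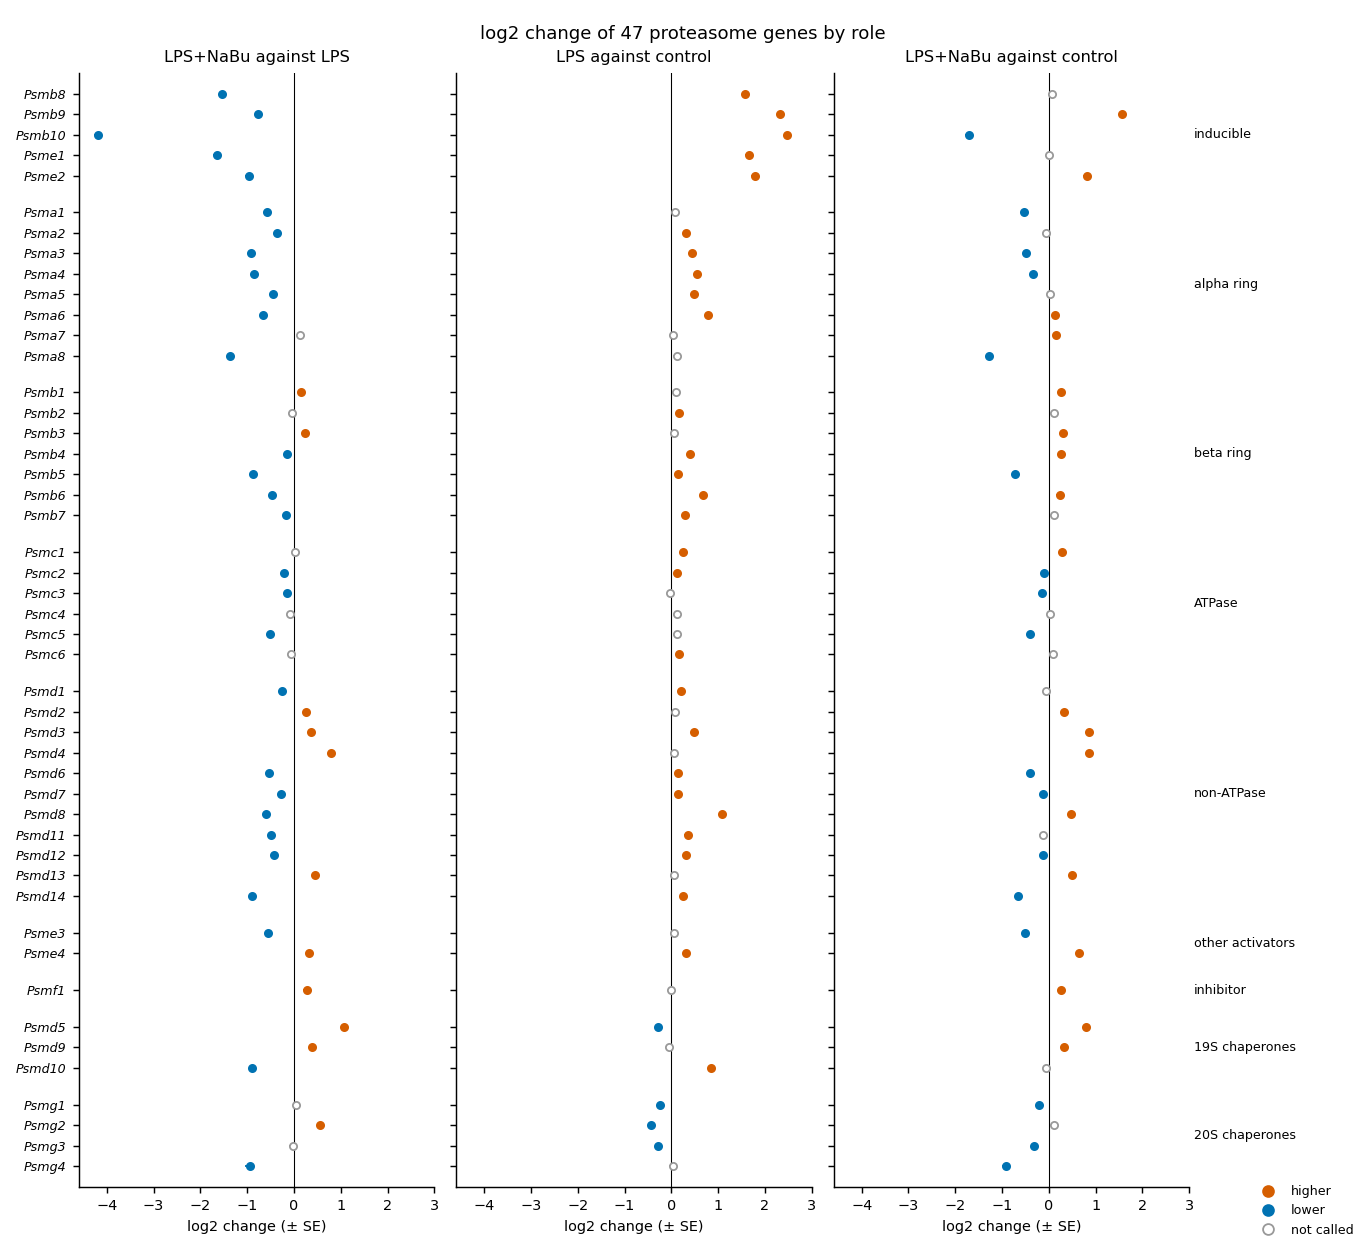
The log2 change ± SE of the 47 members that passed the minimum, by role, in the 3 comparisons. Filled points passed limma at an adjusted p under 0.05, in orange where higher and in blue where lower, and open grey points did not; most error bars are shorter than the point. Psmb10 reached -4.19 with LPS+NaBu against LPS, while the members outside the 5 inducible subunits ran between -1.37 (Psma8) and 1.08 (Psmd5) in that comparison.

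LPS against control gave 23 of the 42 other members higher, 4 lower and 15 that did not pass the test. Of all genes, 25.2% were called higher and 30.8% lower. The median log2 change was 0.14 for the 42 members (-0.09 with scaling to the same sum and 0.01 with quantile normalization), 1.79 for the inducible subunits and -0.05 for all genes. LPS libraries summed to more than control libraries, and scaling to the same sum moves every log2 change by -0.23: the count was then 9 higher and 16 lower, against 12 and 12 with quantile normalization and 27 and 4 with edgeR. The 9 calls of higher that all 19 alternatives kept were Psma3, Psma4, Psma5, Psma6, Psmb4, Psmb6, Psmd3, Psmd8 and Psmd10, and the 4 calls of lower, Psmd5, Psmg1, Psmg2 and Psmg3, all assembly chaperones, were kept as well.

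Psmd8, a lid subunit, had the highest log2 change of the 42 with LPS. It had 15963, 16161 and 14780 normalised counts in LPS+NaBu cells, 22569, 25428 and 23263 in LPS cells and 11519, 11003 and 11191 in control cells. The 3 groups were separate, and the log2 change with LPS against control was 1.08 ± 0.05 (limma adjusted p = 1.41e-09), a 2.11-fold higher level. Psma6 of the alpha ring had 8106, 8238 and 7966 normalised counts in LPS+NaBu cells, 12395, 13125 and 12828 in LPS cells and 7521, 7465 and 7211 in control cells, with a log2 change of 0.79 ± 0.04 with LPS against control (limma adjusted p = 2.2e-09). The alpha ring had 5 of 8 genes higher (Psma2 to Psma6, 0.31 to 0.79) and the beta ring 5 of 7, among them Psmb4 at 0.39 and Psmb2 at 0.16. With scaling to the same sum these counts were 4 higher and 2 lower for the alpha ring and 2 higher and 2 lower for the beta ring. Of the ATPases, Psmc1, Psmc2 and Psmc6 were higher by 0.24, 0.11 and 0.17, calls that scaling to the same sum did not keep. Of the non-ATPases 8 of 11 were higher and 0 lower (2 higher and 3 lower with scaling to the same sum), of which Psmd3 was at 0.48 and Psmd11 at 0.35. The chaperones Psmg2, Psmg3 and Psmg1 were lower by -0.44 ± 0.06, -0.29 ± 0.07 and -0.25 ± 0.06 (limma adjusted p = 2.51e-05, 0.00242 and 0.00254).

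**Figure D4:**
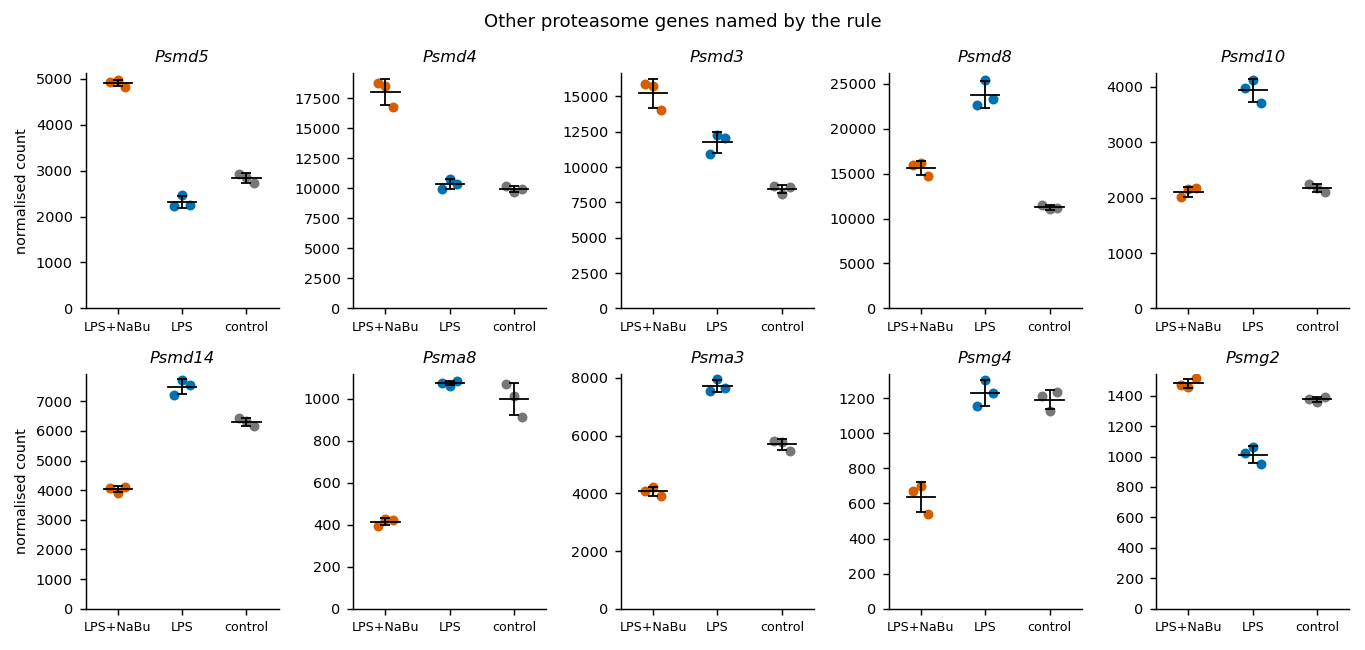
Normalised counts of 10 of the other members, on linear axes from 0, with 1 point per library and the mean ± SD of 3 libraries in black. Psmd5 and Psmd4 averaged 4904 and 18017 in LPS+NaBu cells, 2319 and 10361 in LPS cells and 2834 and 9936 in control cells, while Psma8 and Psmg4 averaged 414 and 636 in LPS+NaBu, 1075 and 1227 in LPS and 1000 and 1192 in control cells.

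LPS+NaBu against control gave 16 of the 42 other members higher, 16 lower and 10 that did not pass the test, where 40.9% of all genes were called higher and 35.1% lower. The median log2 change was 0.03 for the 42 members, 0.06 for the inducible subunits and 0.09 for all genes. With scaling to the same sum or with quantile normalization the count was 20 higher and 12 lower, and with edgeR 14 higher and 19 lower. All 19 alternatives kept 14 calls of higher and 12 of lower. Psmd3, a lid subunit, had 15867, 15745 and 14056 normalised counts in LPS+NaBu cells, 10900, 12281 and 12069 in LPS cells and 8647, 8095 and 8589 in control cells. It was higher both with LPS+NaBu against LPS and with LPS against control, and its log2 change with LPS+NaBu against control was 0.85 ± 0.06 (limma adjusted p = 2.06e-08). Psme4 had 5859, 6067 and 6884 normalised counts in LPS+NaBu cells, 5035, 4541 and 5358 in LPS cells and 3851, 4126 and 3960 in control cells, the same order of groups, with a log2 change of 0.65 ± 0.07 against control (limma adjusted p = 1.54e-06). Psmd5 was 1.73-fold higher than in control (limma adjusted p = 1e-08). Of the constitutive beta ring 4 of 7 genes were higher (Psmb1, Psmb3, Psmb4 and Psmb6, 0.23 to 0.31) and Psmb5 was lower. Of the alpha ring 4 of 8 were lower (Psma1, Psma3, Psma4 and Psma8, -1.27 to -0.33), and Psma6 and Psma7 were higher, at 0.13 and 0.15. Of the ATPases, Psmc1 was higher, at 0.28, and Psmc5, Psmc3 and Psmc2 lower, at -0.40, -0.15 and -0.10, of which the Psmc3 call held in 13 and the Psmc2 call in 10 of 19 alternatives. Of the non-ATPases 5 of 11 were higher (Psmd2, Psmd3, Psmd4, Psmd8 and Psmd13) and 4 lower (Psmd6, Psmd7, Psmd12 and Psmd14). With scaling to the same sum or with quantile normalization the beta ring had 6 higher and 1 lower, the ATPases 2 higher and 1 lower, the non-ATPases 5 higher and 2 lower, and the alpha ring 2 higher and 4 lower.

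**Figure D5:**
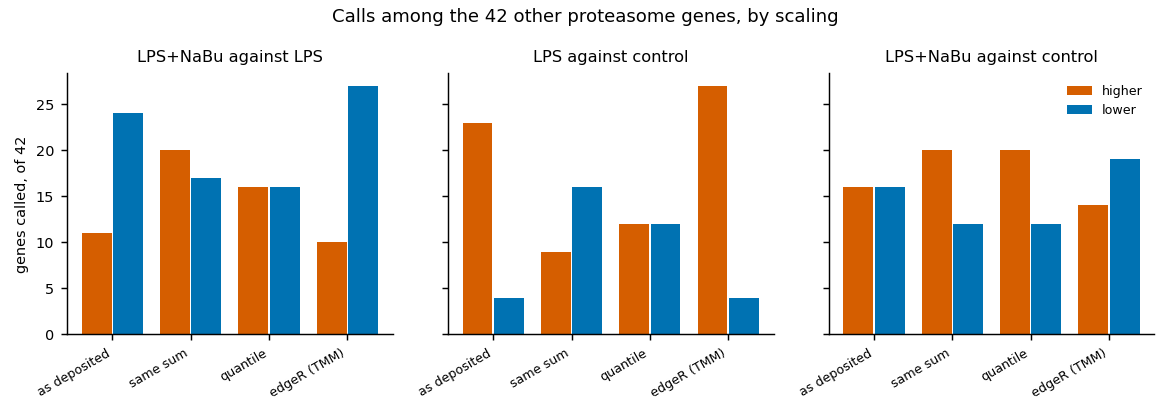
Number of the 42 other members called higher (orange) and lower (blue) in each comparison, with the values as deposited, with libraries scaled to the same sum, after quantile normalization and with edgeR. For LPS against control the count was 23 higher and 4 lower as deposited and 9 higher and 16 lower with the same sum.

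Genes that serve the proteasome without a Psm symbol were counted on a list of 18, all of which passed the minimum. With LPS+NaBu against LPS 3 were higher and 10 lower, with LPS against control 8 higher and 4 lower, and with LPS+NaBu against control 7 higher and 11 lower, where 40.2% and 37.8%, 25.2% and 30.8%, and 40.9% and 35.1% of all genes were called higher and lower in these comparisons. With scaling to the same sum these counts were 8 and 8, 1 and 8, and 7 and 11. The median log2 changes of the list were -0.25, 0.14 and -0.34, beside 0.02, -0.05 and 0.09 for all genes. Pomp, the chaperone that matures the core and is needed for immunoproteasome assembly, had 9731, 9699 and 9083 normalised counts in LPS+NaBu cells, 9378, 10539 and 10074 in LPS cells and 7824, 7502 and 7655 in control cells. Its LPS+NaBu and LPS libraries overlapped (log2 change -0.07 ± 0.05, limma adjusted p = 0.2), and it was higher in both than in control, by 0.31 and 0.38. Nfe2l1, the transcription factor that raises proteasome genes when proteasome activity is short, had 14827, 15297 and 14069 normalised counts in LPS+NaBu cells, 13436, 13166 and 12739 in LPS cells and 11386, 10649 and 10913 in control cells. The log2 change of Nfe2l1 was 0.17 ± 0.05 with LPS+NaBu against LPS (limma adjusted p = 0.00426) and 0.42 ± 0.05 with LPS+NaBu against control (limma adjusted p = 1.63e-06).

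Of 8 genes of the class I presentation pathway and its regulators, 8 were lower in LPS+NaBu than in LPS cells and 8 were higher in LPS than in control cells, with median log2 changes of -1.11 and 2.38 (7 lower, 1 not passing the test, for LPS+NaBu against LPS with scaling to the same sum or with quantile normalization). Of all genes, 37.8% were called lower in the first of these comparisons and 25.2% higher in the second. Against control, 7 were higher in LPS+NaBu and 1 lower, beside 40.9% and 35.1% of all genes. Tap1, whose values are given with Psmb9, was 4.84-fold lower in LPS+NaBu than in LPS cells and remained 2.43-fold above control. Nlrc5, the transactivator of class I genes, had 2348, 2431 and 2483 normalised counts in LPS+NaBu cells, 5944, 5416 and 5338 in LPS cells and 756, 785 and 781 in control cells. Its LPS+NaBu libraries lay between the others. Irf1, a factor known to drive Psmb9 and Tap1, had 3371, 3431 and 2981 normalised counts in LPS+NaBu cells, 3709, 3816 and 3514 in LPS cells and 717, 628 and 621 in control cells. Its log2 change was -0.18 ± 0.07 with LPS+NaBu against LPS (limma adjusted p = 0.0376, a call that held in 13 of 19 alternatives and an estimate of 0.10 with scaling to the same sum) and 2.31 ± 0.07 with LPS+NaBu against control (limma adjusted p = 6.58e-12). In LPS+NaBu cells Psmb10 was thus below control, while Nlrc5 and Irf1 were above it.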

How the data were processed

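RNA of RAW264.7 cells was sequenced in 9 libraries, 3 per group (37625419 to 64380392 reads assigned to genes in each, as recovered from the deposited values). The study's methods give a directional kit, HISAT2 and featureCounts on uniquely mapped reads, whereas STAR 2.7.7a, DESeq2 and mm39 stand in the submitters' notes on processing; which aligner, annotation and strand setting made the counts is not settled. The deposited values are called FPKM but hold a signal of another kind, gene counts that the authors divided by 1 size factor per library: all were whole multiples of 1 read within 0.001, although in 3 libraries 1 read is worth within 1% of 1, where this shows little.

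The 14808 genes over the minimum were fitted on a log2 scale (normalised count plus a pseudocount of 1) by limma 3.58.1 in R 4.3.3, with 1 mean per group, all 9 libraries, an intensity trend and two-sided tests, and called at a Benjamini-Hochberg adjusted p under 0.05 over all of them. Changes are on that scale, which understates them for low genes. Ratios were compared by exact permutation. The 19 alternatives per comparison were other pseudocounts and minimums, scaling to the same sum, quantile normalization, edgeR 4.0.16 and DESeq2 1.42.0 on recovered reads, a replicate block, fitting only the groups compared, and leaving out each library. Scripts were tested on simulated counts. Values in every library are given for the inducible subunits, for Psmb5, Psmb6, Psmb7 and Psme3, for the 4 other members called highest and the 4 called lowest by log2 change in each comparison, and for Pomp, Nfe2l1, Tap1, Nlrc5 and Irf1; 1 further gene of this rule is not reported here. Members and lists were chosen with earlier results of these data known. Sem1, Ecpas, Psme3ip1 and Adgre1 stand under older symbols in the files and were matched by Ensembl identifier. Transcripts were aligned with Biopython 1.88.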

Additional observations from a re-analysis of the deposited data

How the results depend on the processing

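The 5 inducible subunits kept their calls in each comparison under all 19 alternatives, and the 15 ratio differences kept their direction with a pseudocount of 5 and with each library left out. The other members depended on the scaling. Scaling to the same sum gave 20 higher in place of 11 with LPS+NaBu against LPS. With LPS against control it gave 9 higher in place of 23 and 16 lower in place of 4, and quantile normalization gave 12 higher and 12 lower. Scaling to the same sum shifts every gene of a library alike, and the cause of the change with quantile normalization was not tested. Values that changed sign, and passed the test as deposited or under the setting named, were with LPS+NaBu against LPS, with the same sum, Psmb2 (0.230), Psmb4 (0.136), Psmb7 (0.095), Psmc2 (0.071), Psmc3 (0.138), Psmc4 (0.184), Psmc6 (0.203), Psmd1 (0.012) and Psmg3 (0.247), and with quantile normalization Psmb4 (0.215), Psmb7 (0.058), Psmc2 (0.043), Psmc3 (0.165), Psmc4 (0.157) and Psmd1 (0.057). With LPS against control they were, with the same sum, Psma1 (-0.160), Psma7 (-0.188), Psmb1 (-0.125), Psmb2 (-0.065), Psmb3 (-0.164), Psmb5 (-0.083), Psmc2 (-0.117), Psmc6 (-0.054), Psmd1 (-0.025), Psmd13 (-0.170), Psmd2 (-0.154), Psmd4 (-0.167), Psmd6 (-0.087), Psmd7 (-0.074) and Psme3 (-0.167), and with quantile normalization Psma1 (-0.114), Psma7 (-0.215), Psmb1 (-0.123), Psmc1 (-0.007), Psmc2 (-0.095), Psmd1 (-0.042), Psmd2 (-0.252), Psmd4 (-0.163), Psmd7 (-0.018) and Psme3 (-0.161). No such value was found with LPS+NaBu against control in the 19 alternatives. Values that passed the test in neither analysis and changed sign are not listed. Of the 47 members, 31, 20 and 34 had no change of call in any alternative with LPS+NaBu against LPS, LPS against control and LPS+NaBu against control. Leaving out 1 library, the members called numbered 37 to 40, 28 to 34 and 31 to 36 in these comparisons, against 40, 32 and 35 with all libraries.

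With the replicate number as a replicate block the members called were 39, 29 and 33. Deviations of same-numbered libraries from their group means correlated between -0.044 and 0.020 over 9 pairs, so the numbers were not taken to pair the libraries. Every test rests on 3 libraries a group, and small log2 changes of the constitutive members cannot be told apart from a shift of scale between groups. Values of Psmb9, Psme1, Psme2, Psmb7, Psmg2, Psmd13, Psmd10 and Psmc5 carry the limits of overlapping or near-identical genes given with them.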

Other observations

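Genes of the list of 18 beyond those named in the text were picked after their values were seen. Those with the lowest log2 changes with LPS+NaBu against LPS were Ecpas, an adaptor and scaffold of the 26S particle, at -1.63 ± 0.05 on the log2 scale (limma adjusted p = 3.65e-12), Usp14, a deubiquitinase bound to the 19S base, at -1.25 ± 0.04 (limma adjusted p = 2.25e-11), and the shuttle factor Rad23b at -1.09 ± 0.04 (limma adjusted p = 4.08e-11). Akirin2, which carries proteasomes into the nucleus, was lower by -0.95 ± 0.06 (limma adjusted p = 3.48e-09). Others of like function did not pass the test: the shuttle factors Ubqln1 and Ubqln2 stood at 0.11 and 0.00 and the ubiquitin receptor Adrm1 at 0.05. Usp14 had 4465, 4425 and 4788 normalised counts in LPS+NaBu cells, 10885, 10595 and 11113 in LPS cells and 9863, 10100 and 9540 in control cells, so the LPS+NaBu libraries stood apart. Ddi2, the protease that activates the Nfe2l1 protein, went the other way. It had 6793, 6637 and 7412 normalised counts in LPS+NaBu cells, 2920, 2413 and 2689 in LPS cells and 4588, 4706 and 4475 in control cells, a log2 change of 1.38 ± 0.07 with LPS+NaBu against LPS (limma adjusted p = 4.12e-10) and -0.78 ± 0.07 with LPS against control (limma adjusted p = 3.55e-07). Ngly1, the glycanase that also processes Nfe2l1, was higher by 0.45 ± 0.09 with LPS+NaBu against LPS (limma adjusted p = 0.00054). The calls of these 6 genes with LPS+NaBu against LPS held in all 19 alternatives. Erap1, the aminopeptidase that trims class I peptides, was the 1 gene of the class I list below control in LPS+NaBu cells, at -1.77 ± 0.06 (limma adjusted p = 7.75e-12), as Psmb10 was among the inducible subunits.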
